A study of Mus musculus with 8 samples.

Results

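The epiblast of the post-implantation mouse embryo was compared with the inner cell mass (ICM) of the blastocyst by RNA sequencing, in 2 epiblast and 3 ICM libraries of the 8 libraries in the series. Genes with a deposited level of at least 1 in at least 2 of these 5 libraries were tested, which left 16318 of 38924. The series asks how metabolism governs a diapause-like state under the control of mTOR, and its 3 libraries of diapaused ICM were not used here. ICM came from blastocysts flushed at day 3.5 from superovulated C57BL/6 females, after the trophectoderm had been lysed with antibody and complement. Epiblast came from C57BL/6 embryos at day 6.5, isolated by a method that the labels only cite. Each library was made from a pool of about 50 embryos, and an amplification kit for small inputs was applied to its RNA. The labels name no transgene, deletion or drug for either group. Because embryo age, superovulation and the method of isolation changed together, they cannot be told apart. Pools are numbered as the replicates in the labels. A p-value here measures the spread between such pools, and with 2 pools on one side that spread is poorly known.

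In the blastocyst, the ICM holds the naive pluripotent cells that will form the embryo together with the primitive endoderm. Around implantation the naive cells lose their distinctive transcription factors and pass through a formative state. They then form the epiblast, an epithelial cup under FGF, Nodal and Wnt signals that is said to be primed for gastrulation. The transition is known for a gain of DNA methylation and for a move towards glycolysis.

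Levels are the authors' adjusted TPM, an abundance per transcript length whose library sums differed, from 720674 in ICM pool 2 to 1135971 in epiblast pool 1. Between 14634 and 15020 genes reached a level of 1 in a library. Principal component 1 (73.8% of the variance) separated epiblast (scores of 96.69 and 81.73) from ICM (-63.85 to -55.49). Component 2 (12.5%) set ICM pool 2 (-53.01) apart from ICM pools 1 and 3 (19.41 and 36.27). The share of summed values held by Npm1, whose product works in the nucleolus, was 9.71% and 8.41% in epiblast and 0.978% to 3.21% in ICM. All 5 libraries are labelled female, yet the Y-linked translation factor gene Eif2s3y was at 15, 10.8 and 7.66 in ICM and at 25.3 and 25.9 in epiblast. Summed over 7 Y-linked genes the level was 21.1, 22.5 and 14.1 in ICM and 29.5 and 30.1 in epiblast. Unless these reads were shared with near copies off the Y, the label does not describe every embryo of a pool.

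Marker lists are given as a description of the labelled tissues, since their members were chosen with earlier results of these data known. Single genes made up large parts of some sums. Dppa3 was at 987 to 1361 in ICM among naive genes, and Sparc at 427 to 500 in ICM among primitive endoderm markers. Naive pluripotency genes summed to 3180, 3050 and 3070 in the ICM pools and to 383 and 282 in the epiblast pools. Genes of the primed and formative epiblast summed to 300, 274 and 343 in ICM and to 1480 and 905 in epiblast. Primitive endoderm markers, whose cells lie within a blastocyst's ICM, summed to 1150, 881 and 1230 in ICM and 128 and 141 in epiblast. Visceral endoderm markers, whose cells surround the epiblast, summed to 28.8, 20.0 and 37.8 in ICM and to 51.2 and 144 in epiblast. The second epiblast pool thus held the most visceral endoderm RNA. Trophectoderm and extraembryonic ectoderm markers summed to 320, 253 and 382 in ICM and 255 and 254 in epiblast, so these groups overlapped. The glucose transporter gene Slc2a1 made up 149 and 146 of the epiblast sums and 39 to 57.6 of the ICM sums. Klf5, also on the naive list, made up 67.9 to 134 in ICM and 2.39 and 1.4 in epiblast. The overlap thus rested on Slc2a1, and these sums do not measure trophectoderm RNA alone. Of 26 decidua, stroma and blood markers in the file, 24 were below 1 in every pool.

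**Figure D1:**
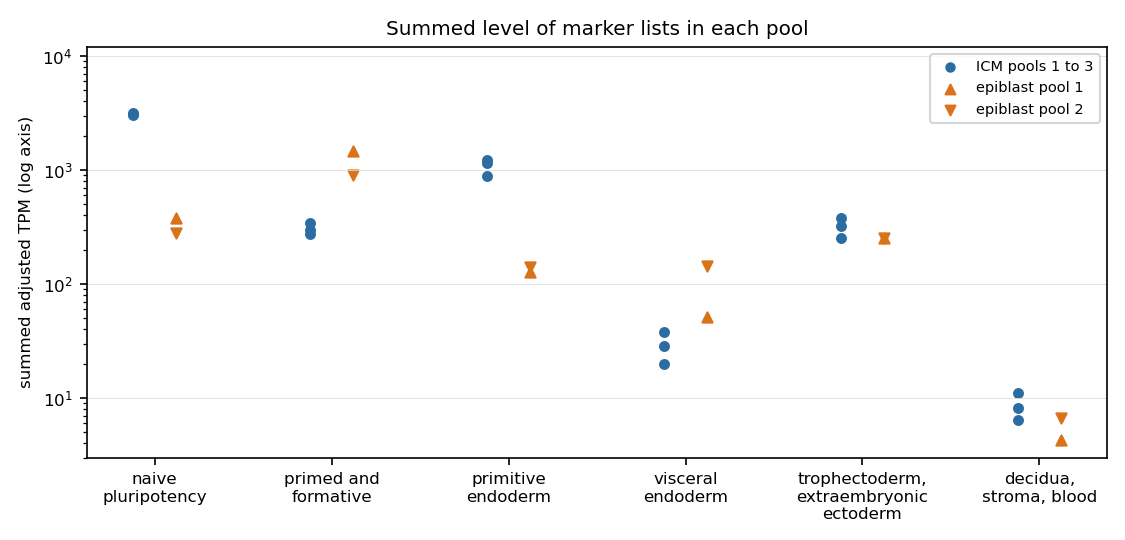
Summed adjusted TPM (vertical, log axis) of 6 marker lists (horizontal) in 3 ICM pools (circles) and 2 epiblast pools (triangles). Naive and primitive endoderm markers lie lower in both epiblast pools, and visceral endoderm markers reach 144 in epiblast pool 2.

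In a limma fit on log2(adjusted TPM + 1), 2823 genes (17.3%) were higher and 2417 (14.8%) lower in epiblast at an adjusted p under 0.05. The direction is always epiblast relative to ICM, fold changes are given with their SE, and levels of single pools are given in the order of their numbers. On this log scale the change of a gene with a low level is understated. All 5240 called genes (32.1%) had every pool of one group beyond every pool of the other, and 2107 rose and 2081 fell at least 2-fold. Over all tested genes, called or not, both epiblast pools lay above every ICM pool in 35.5% and below in 25.7%. Such a separation is therefore common and does not mark out a gene by itself. The median log2 fold change over all tested genes was 0.17, and it serves below as the reference for the median of each gene list. The shares of 17.3% higher and 14.8% lower serve in the same way for the counts of each list. With each library scaled to the same sum the median moved by -0.226, and 1630 genes were higher and 2942 lower. With epiblast pool 1 left out 525 genes were higher and 500 lower, and with epiblast pool 2 left out 1111 and 858. With ICM pool 1, 2 or 3 left out, 1543, 2680 and 2072 were higher and 1756, 2700 and 1805 lower. Of the 2823 higher genes 581 were below 1 in every ICM pool, and of the 2417 lower genes 532 were below 1 in both epiblast pools. Such genes were tested only because the other group reached 1, so their direction was set by the filter, and counts of list members that include them are a description. In a fit without one epiblast pool the other pool is assumed to vary like the ICM pools. Below, a gene is said to lose its call where leaving out a pool takes its adjusted p to 0.05 or above.

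**Figure D2:**
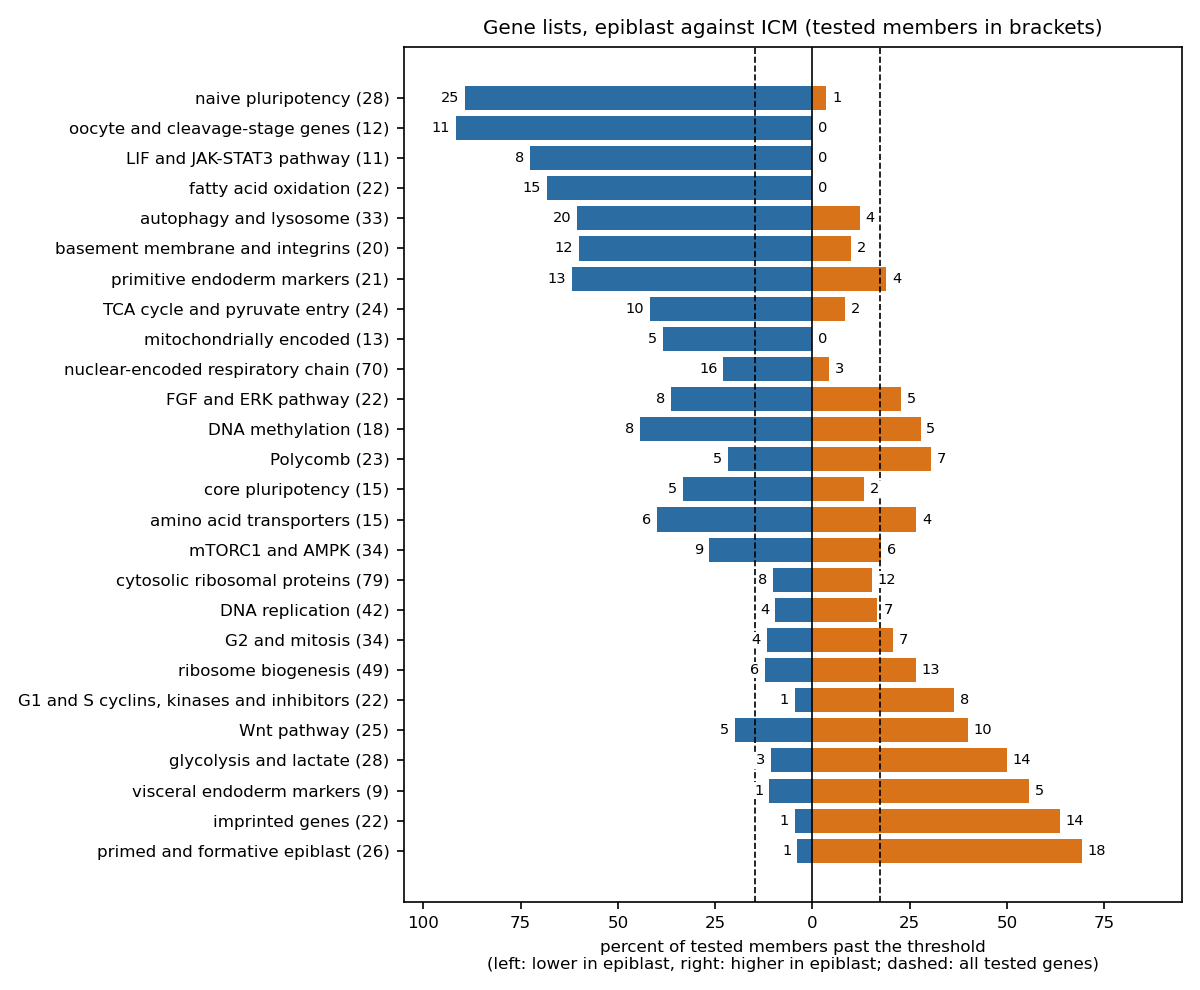
Percent of the tested members of 26 gene lists that were past the threshold, lower in epiblast to the left and higher to the right (horizontal), with the number of members at each bar and the number tested in brackets. Dashed lines mark the shares over all tested genes, 14.8% lower and 17.3% higher. Naive pluripotency and oocyte genes reach furthest to the left, primed and imprinted genes furthest to the right.

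Most genes of the naive state fell in the epiblast. Of 28 tested genes of the naive pluripotency list 25 fell (11 of 14 transcription factors and 14 of 14 other markers) and 1 rose, with a median log2 fold change of -3.09, beside 14.8% of all tested genes lower and 17.3% higher. Tfcp2l1 was at 67.7, 56.3 and 71.1 in ICM and at 0.756 and 0.707 in epiblast. This factor holds mouse embryonic stem cells in the naive state. Klf5 was at 110.1, 67.9 and 134 in ICM and at 2.39 and 1.4 in epiblast. Tbx3 was at 25.1, 37.5 and 19.7 in ICM and at 0.297 and 0.379 in epiblast. Both genes encode factors of naive self-renewal, and no epiblast pool came near the lowest ICM pool. The log2 fold change was -5.25 ± 0.23, adjusted p = 9.2e-05 for Tfcp2l1, -5.15 ± 0.35, adjusted p = 0.000254 for Klf5 and -4.36 ± 0.30, adjusted p = 0.000271 for Tbx3. Klf4, a relative of Klf5, was at 15.5 to 22.1 in ICM and 0.93 and 0.509 in epiblast (log2 fold change -3.59 ± 0.26, adjusted p = 0.000294). Esrrb was at 23.6, 40.8 and 26.3 in ICM and at 2.24 and 2.23 in epiblast. Esrrb, an orphan nuclear receptor and a known Wnt target in naive cells, was thus alike in both epiblast pools and below each ICM pool (log2 fold change -3.23 ± 0.29, adjusted p = 0.000657). Zfp42, known as Rex1 and a common marker of the naive state, was at 8.8 to 10.3 in ICM and 1.34 and 0.986 in epiblast (log2 fold change -2.28 ± 0.21, adjusted p = 0.000798). Klf2 was low in both tissues, at 1.8 to 3.59 in ICM and 0.378 and 0.375 in epiblast (log2 fold change -1.31 ± 0.30, adjusted p = 0.0186). The pluripotency marker genes Dppa3 and Fbxo15, the matrix protein gene Spp1 and the Ras family gene Mras had the steepest falls of the list, with log2 fold changes of -8.16, -6.82, -6.50 and -6.44. In bulk RNA, fewer cells of a type and less RNA per cell cannot be told apart, and this holds for each list below. Of the 25 that fell 11 reached 1 in ICM only. Naive genes higher and lower numbered 0 and 16 without epiblast pool 1. Klf2 lost the call without epiblast pool 1 or epiblast pool 2 (adjusted p from 0.0976 to 0.113).

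The exception in the list was Zfp281, a zinc finger factor known for its part in leaving the naive state. Zfp281 was at 3.94, 3.28 and 4.28 in ICM and at 18.7 and 13 in epiblast. Both epiblast pools lay above all ICM pools (log2 fold change 1.79 ± 0.25, adjusted p = 0.00339). Zfp281 lost the call without epiblast pool 1 (adjusted p = 0.0572).

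**Figure D3:**
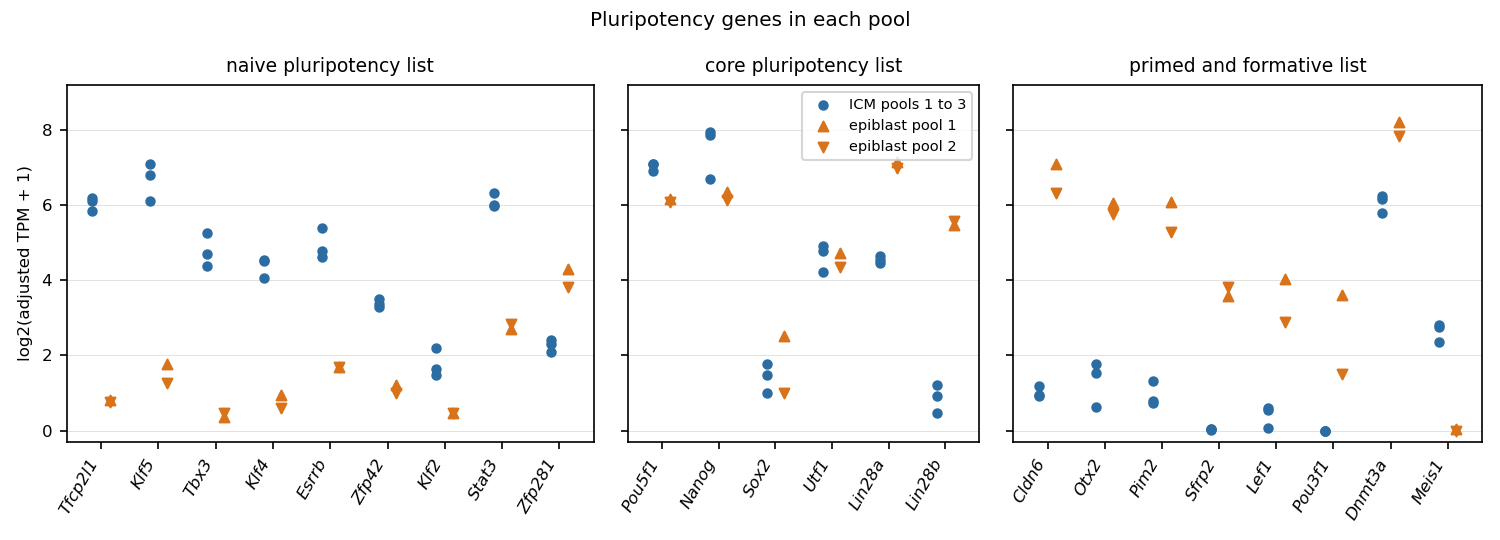
Level of single genes as log2(adjusted TPM + 1) (vertical) in 3 ICM pools (circles) and 2 epiblast pools (triangles), in panels for the naive, core and primed lists. Naive factors other than Zfp281 drop in epiblast, Pou5f1 and Nanog stay above 6 on this axis, and Otx2, Cldn6 and Lin28b are high in epiblast only.

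The core pluripotency list divided, with 2 of 15 tested genes higher (13.3%), 5 lower (33.3%) and a median of -0.09. Over all genes the shares were 17.3% and 14.8%. Pou5f1 was at 118, 135 and 135 in ICM and at 70.5 and 66.2 in epiblast. The gene encodes Oct4, the central pluripotency factor, and its epiblast pools were lower than all ICM pools (log2 fold change -0.91 ± 0.24, adjusted p = 0.0281). Nanog was at 232, 102 and 244 in ICM and at 80.3 and 69.3 in epiblast. Both epiblast pools were below the lowest ICM pool, but the difference missed the threshold (log2 fold change -1.26 ± 0.42, adjusted p = 0.0581). Sox2 was at 1.8, 0.998 and 2.43 in ICM and at 4.68 and 0.994 in epiblast. Epiblast pool 1 was the highest and epiblast pool 2 the lowest of all 5 for Sox2, the partner of Oct4 (log2 fold change 0.33 ± 0.47, adjusted p = 0.614). Utf1, a chromatin factor of pluripotent cells, was at 17.7 to 29.1 in ICM and 25.6 and 19.4 in epiblast, with overlapping groups (log2 fold change -0.09 ± 0.30, adjusted p = 0.83). Tdgf1, the Nodal co-receptor Cripto, was at 221 to 401 in ICM and 162 and 114 in epiblast (log2 fold change -1.15 ± 0.34, adjusted p = 0.04). Core list genes higher and lower numbered 2 and 2 without ICM pool 1, ICM pool 3, epiblast pool 1 or epiblast pool 2. Pou5f1 and Tdgf1 lost their call without ICM pool 1, ICM pool 3, epiblast pool 1 or epiblast pool 2 (adjusted p from 0.067 to 0.219).

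Both Lin28 genes, which encode proteins that block maturation of the let-7 microRNAs, rose. Lin28a was at 20.8, 22.3 and 24 in ICM and at 141 and 125 in epiblast. Lin28b was at 1.33, 0.385 and 0.91 in ICM and at 42.9 and 46.8 in epiblast. Lin28a was present in ICM and increased, while Lin28b was near 1 or below in ICM (log2 fold change 2.52 ± 0.23, adjusted p = 0.000762 for Lin28a and 4.64 ± 0.28, adjusted p = 0.000168 for Lin28b). Dppa2 and Dppa4, neighbouring genes whose proteins act together on chromatin of the early embryo, fell. Dppa2 was at 77.3, 75.4 and 91.3 in ICM and at 0.797 and 0.846 in epiblast. Dppa4 was at 49.8, 26.4 and 52.3 in ICM and at 1.72 and 2.73 in epiblast. Each epiblast pool was far under each ICM pool (log2 fold change -5.49 ± 0.23, adjusted p = 8.33e-05 for Dppa2 and -3.72 ± 0.36, adjusted p = 0.000879 for Dppa4). Among 14 tested genes of microRNA processing and let-7 control 3 rose (21.4%) and 2 fell (14.3%), with a median of 0.45. These shares were near the 17.3% and 14.8% of all genes. The nuclease gene Drosha was at 18.1 to 43.1 in ICM and 90.8 and 104 in epiblast (log2 fold change 1.57 ± 0.41, adjusted p = 0.0286). MicroRNA processing genes higher and lower numbered 3 and 1 without ICM pool 1 or ICM pool 3, 4 and 1 without ICM pool 2, and 2 and 0 without epiblast pool 1 or epiblast pool 2. Drosha lost the call without epiblast pool 1 or epiblast pool 2 (adjusted p from 0.15 to 0.169).

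Genes of the primed and formative epiblast rose together, 18 of 26 tested against 1 lower, with a median of 1.90. Otx2 was at 1.9, 0.547 and 2.42 in ICM and at 64.9 and 53 in epiblast. Fgf5 was at 0.00407, 8.71e-04 and 1.07 in ICM and at 145 and 68.9 in epiblast. Otx2, a homeobox factor that directs the exit from the naive state, and Fgf5, the growth factor that marks the epiblast, were thus low in every ICM pool (log2 fold change 4.59 ± 0.37, adjusted p = 0.000427 for Otx2 and 6.30 ± 0.45, adjusted p = 0.000289 for Fgf5). Only ICM pool 3 held Fgf5 above 1. Cldn6 was at 0.903, 0.929 and 1.27 in ICM and at 135 and 79.2 in epiblast. Cldn6 encodes a tight junction claudin, and its epiblast pools were far above the ICM pools (log2 fold change 5.69 ± 0.29, adjusted p = 0.000111). Pim2, a serine/threonine kinase gene, was at 0.667 to 1.51 in ICM and 66.3 and 38 in epiblast (log2 fold change 4.73 ± 0.32, adjusted p = 0.000255). Sfrp2, a secreted modulator of Wnt, was at most 0.0328 in ICM and at 10.9 and 13.1 in epiblast (log2 fold change 3.66 ± 0.23, adjusted p = 0.000201). Lef1, a nuclear partner of beta-catenin, was at 0.0515 to 0.519 in ICM and 15.4 and 6.38 in epiblast (log2 fold change 3.05 ± 0.38, adjusted p = 0.00239). Of the 18 that rose 7 reached 1 in epiblast only. Primed genes higher and lower numbered 10 and 1 without epiblast pool 1.

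The epiblast pools disagreed on Pou3f1. This POU factor, also called Oct6, was at 11.1 and 1.86 in the epiblast pools and at most 0.00136 in ICM (log2 fold change 2.56 ± 0.57, adjusted p = 0.0175). With epiblast pool 2 alone its log2 fold change was 1.52 (adjusted p = 0.0343). Meis1, a homeobox gene placed on the primed list, went the other way. It was at 4.12 to 6.06 in ICM and at most 0.0353 in epiblast (log2 fold change -2.62 ± 0.25, adjusted p = 0.000848). Of 16 neurectoderm genes 12 were below 1 in all 5 pools.

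Members of the LIF and JAK-STAT3 pathway, which sustains naive self-renewal, fell without exception among those called. The list had 8 of 11 tested members lower, 0 higher and a median of -1.56. Among those that fell, Tfcp2l1, Klf4 and Stat3 are also on the naive list and were counted there. Lifr, the LIF receptor gene, was at 8.53 to 12 in ICM and 1.43 and 2.3 in epiblast (log2 fold change -2.02 ± 0.26, adjusted p = 0.00248). Il6st was at 29.8, 23.8 and 33.3 in ICM and at 2.01 and 3.09 in epiblast. Il6st encodes gp130, the shared signalling chain, and both of its epiblast pools lay below all ICM pools (log2 fold change -3.08 ± 0.26, adjusted p = 0.000529). Lifr and Il6st were picked after their values were seen. Stat3 was at 79, 62.5 and 61.2 in ICM and at 5.5 and 6.07 in epiblast. The transcription factor at the end of the pathway was thus also at a fraction of its ICM level (log2 fold change -3.33 ± 0.24, adjusted p = 0.000311). Of the 8 that fell 5 reached 1 in ICM only. LIF pathway genes higher and lower numbered 0 and 4 without epiblast pool 1. Lifr lost the call without epiblast pool 1 (adjusted p = 0.0527).

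Genes of FGF and ERK signalling, on which naive exit depends, changed in both directions, with 5 of 22 tested higher, 8 lower and a median of -0.37. Of 5 tested ligand genes 2 rose, among them Fgf5 described above, and 3 fell, and of 5 receptor genes 0 rose and 2 fell. Fgf4, the ligand of the ICM, was at 5.04 to 14.1 in ICM and 1.29 and 0.839 in epiblast (log2 fold change -2.25 ± 0.39, adjusted p = 0.00753). Fgf10 was at 17.7, 15.5 and 17.8 in ICM and at 0.388 and 0.856 in epiblast. This ligand was present in all ICM pools at like levels and below 1 in both epiblast pools (log2 fold change -3.48 ± 0.23, adjusted p = 0.00023). Fgf8, a ligand of the primitive streak, was below 0.11 in every pool and not tested. Fgfr1, a receptor gene, was at 14.6 to 25.4 in ICM and 4.31 and 3.78 in epiblast (log2 fold change -1.94 ± 0.29, adjusted p = 0.00433). Fgfr2, another receptor gene, was at 11.9 to 17.9 in ICM and 7.93 and 4.15 in epiblast (log2 fold change -1.12 ± 0.32, adjusted p = 0.0393). Of 12 tested feedback targets of ERK 3 rose and 3 fell. Dusp6 was at 3.45, 2.81 and 4.34 in ICM and at 20.04 and 16 in epiblast. Dusp6 encodes an ERK phosphatase, and its epiblast pools lay above all ICM pools (log2 fold change 2.08 ± 0.25, adjusted p = 0.00203). Spry4, a Sprouty inhibitor gene, was at 3.12 to 4.003 in ICM and 9.33 and 8.28 in epiblast (log2 fold change 1.09 ± 0.22, adjusted p = 0.012). Egr1, an immediate-early target gene picked after its values were seen, fell and was at 3.87 to 20.1 in ICM and 1.4 and 0.386 in epiblast (log2 fold change -2.25 ± 0.62, adjusted p = 0.0345). FGF list genes higher and lower numbered 5 and 5 without ICM pool 3, 2 and 1 without epiblast pool 1, 3 and 1 without epiblast pool 2, and 3 and 8 with libraries scaled to the same sum. Fgfr2 lost the call without ICM pool 1 (adjusted p = 0.0717). Fgfr2 and Egr1 lost their call without ICM pool 3 (adjusted p from 0.0577 to 0.0926). Fgf4, Fgfr1, Fgfr2, Spry4 and Egr1 lost their call without epiblast pool 1 or epiblast pool 2 (adjusted p from 0.0562 to 0.232). The log2 fold change of Fgfr2 was -0.72 without epiblast pool 2.

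In the Nodal and Activin pathway, which keeps the primed epiblast pluripotent, 2 of 15 tested genes rose and 3 fell, with a median of -0.13. The ligand gene Nodal was at 0.11 to 0.254 in ICM and 0.898 and 0.79 in epiblast, and the inhibitor gene Lefty1 was below 0.19 in all pools, so neither was tested. Lefty2, also an inhibitor, was at 2.58 to 5.95 in ICM and 1.8 and 1.39 in epiblast (log2 fold change -0.89 ± 0.32, adjusted p = 0.0725). Gdf3, a ligand of the same family, was at 8.07 to 12 in ICM and 1.02 and 0.471 in epiblast (log2 fold change -2.73 ± 0.27, adjusted p = 0.000972). Pcsk6, a convertase gene that processes such ligands, was at 3.32 to 6.5 in ICM and 0.941 and 0.783 in epiblast (log2 fold change -1.74 ± 0.30, adjusted p = 0.00776). Of these only Gdf3 and Pcsk6 passed the threshold. Fst was at 0.00743, 0.0304 and 0.0147 in ICM and at 11.1 and 8.85 in epiblast. Fst encodes follistatin, a binding inhibitor of Activin, and it was near absent from every ICM pool (log2 fold change 3.43 ± 0.24, adjusted p = 0.000268). Skil was at 5.52, 5.5 and 5.77 in ICM and at 22.1 and 23.4 in epiblast. The repressor of SMAD proteins encoded by Skil was thus even within each tissue and higher in epiblast (log2 fold change 1.85 ± 0.21, adjusted p = 0.00172). Nodal pathway genes higher and lower numbered 2 and 1 without epiblast pool 1 or epiblast pool 2. Pcsk6 lost the call without epiblast pool 1 or epiblast pool 2 (adjusted p from 0.0793 to 0.0861).

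Of 9 tested BMP genes 3 rose and 1 fell, with a median of -0.42. Bmp4 was at 15, 18.7 and 15.3 in ICM and at 2.35 and 3.54 in epiblast. This ligand, made in the embryo by ICM and later by extraembryonic ectoderm, was lower in both epiblast pools (log2 fold change -2.15 ± 0.25, adjusted p = 0.00179). The receptor gene Bmpr1a was at 4.52 to 7.97 in ICM and 17.9 and 17.1 in epiblast (log2 fold change 1.31 ± 0.28, adjusted p = 0.015). Smad1, an effector gene of the pathway, was at 0.011 to 0.195 in ICM and 4.23 and 2.07 in epiblast (log2 fold change 1.91 ± 0.33, adjusted p = 0.00753). The target gene Id2 was at 2.22 to 3.56 in ICM and 7.15 and 6.83 in epiblast (log2 fold change 0.98 ± 0.25, adjusted p = 0.025). These 3 genes rose while the ligand gene fell. BMP genes higher and lower numbered 3 and 3 without ICM pool 2, 1 and 1 without epiblast pool 1 or epiblast pool 2, and 2 and 2 with libraries scaled to the same sum. Bmpr1a and Id2 lost their call without epiblast pool 1 or epiblast pool 2 (adjusted p from 0.0972 to 0.157).

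Of 25 tested Wnt genes 10 rose and 5 fell, with a median of 0.61, and 9 of the 10 reached 1 in epiblast only. Fzd7 was at 0.513, 0.744 and 0.405 in ICM and at 37.3 and 12.2 in epiblast. The receptor gene Fzd7 was below 1 in every ICM pool, and its epiblast pools differed from each other (log2 fold change 3.86 ± 0.43, adjusted p = 0.00167). A second receptor gene, Fzd5, went the opposite way, at 12 to 14.8 in ICM and 3.12 and 2.71 in epiblast (log2 fold change -1.84 ± 0.22, adjusted p = 0.00209). Porcn, the acyltransferase gene needed to secrete Wnt proteins, was at 5.04 to 5.95 in ICM and 0.742 and 0.666 in epiblast (log2 fold change -1.91 ± 0.21, adjusted p = 0.00158). Axin2, the standard Wnt target and feedback gene, was at 9.91, 29.1 and 16.8 in ICM and at 2.31 and 2.67 in epiblast (log2 fold change -2.37 ± 0.42, adjusted p = 0.00792). ICM pool 2 had the highest level, and both epiblast pools lay under all ICM pools. Dkk1, a secreted inhibitor, was at 2.58 to 4.65 in ICM and 1.09 and 0.852 in epiblast (log2 fold change -1.13 ± 0.28, adjusted p = 0.0231). Wnt genes higher and lower numbered 5 and 2 without epiblast pool 1, and 10 and 2 without epiblast pool 2. Dkk1 lost the call without ICM pool 1 or ICM pool 3 (adjusted p from 0.0519 to 0.0532). Axin2 and Dkk1 lost their call without epiblast pool 1 or epiblast pool 2 (adjusted p from 0.0759 to 0.138).

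Genes of the primitive streak, where gastrulation starts, were mostly low. Of 35 listed, 20 were below 1 in all pools, 10 were tested, 4 rose and 4 fell. Mixl1 was at 0.141, 0.164 and 0.332 in ICM and at 14.2 and 11.3 in epiblast. Mixl1, a homeobox gene of the streak, was far above ICM in both epiblast pools (log2 fold change 3.50 ± 0.23, adjusted p = 0.00023). Eomes was at 0.639, 0.795 and 2.37 in ICM and at 19.6 and 8.39 in epiblast. This T-box gene is expressed in early streak and also in extraembryonic ectoderm (log2 fold change 2.69 ± 0.44, adjusted p = 0.00625). T, which encodes brachyury, was at most 0.0605 in ICM and at 1.52 and 2.18 in epiblast (log2 fold change 1.46 ± 0.30, adjusted p = 0.0127). Apln, a peptide ligand gene, was at most 0.00227 in ICM and at 3.72 and 2.26 in epiblast (log2 fold change 1.97 ± 0.30, adjusted p = 0.00459). The 4 that fell were Axin2 and Gata4, Gata6 and Pdgfra, of which the last 3 also mark primitive endoderm. Wnt3, the ligand that starts the streak, was at 1.89 and 0.496 in epiblast and at most 0.0707 in ICM, and was not tested. Of the 4 that rose 3 reached 1 in epiblast only, and of the 4 that fell 3 in ICM only. Streak genes higher and lower numbered 4 and 2 without epiblast pool 2. Eomes lost the call without epiblast pool 1 (adjusted p = 0.0826).

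Markers of the primitive endoderm, 13 of 21 tested lower and 4 higher, had a median of -1.70. Pdgfra was at 26.5, 32.8 and 24.2 in ICM and at 0.121 and 0.114 in epiblast. Sparc was at 493, 427 and 500.3 in ICM and at 32.7 and 22.2 in epiblast. Pdgfra, the receptor that marks primitive endoderm, and Sparc, a matrix protein gene, were each low in both epiblast pools (log2 fold change -4.68 ± 0.23, adjusted p = 0.000111 for Pdgfra and -4.08 ± 0.27, adjusted p = 0.00023 for Sparc). The laminin gene Lama1 was at 11.1 to 22 in ICM and 0.143 and 0.217 in epiblast (log2 fold change -3.81 ± 0.31, adjusted p = 0.000423). The lineage factor Gata4 was at 4.66 to 5.42 in ICM and 0.549 and 0.511 in epiblast (log2 fold change -1.98 ± 0.21, adjusted p = 0.00137). Gata6, which specifies the lineage, was at 3.33 to 5.3 in ICM and 0.596 and 0.089 in epiblast (log2 fold change -1.94 ± 0.29, adjusted p = 0.0045). Of 5 tested transcription factor genes of the list 4 fell and 0 rose, and of 16 secreted or surface genes 9 fell and 4 rose. Sox17 was at 0.164 to 1.93 in ICM and 0.0506 and 0.0782 in epiblast, and was not tested. Among the 4 that rose, Cited1, a transcription cofactor gene, was at 0.566 to 1.31 in ICM and 6.6 and 7.84 in epiblast (log2 fold change 2.02 ± 0.27, adjusted p = 0.00274). Ctsh, a cathepsin gene, was at 0.208 to 0.376 in ICM and 2.47 and 3.24 in epiblast (log2 fold change 1.58 ± 0.27, adjusted p = 0.00671). Of the 13 that fell 8 reached 1 in ICM only. Primitive endoderm markers higher and lower numbered 2 and 8 without epiblast pool 1 or epiblast pool 2. Gata6 lost the call without epiblast pool 2 (adjusted p = 0.0503).

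Among visceral endoderm markers 5 of 9 tested rose and 1 fell, and 4 of the 5 reached 1 in epiblast only, so the filter set their direction. Ttr was at 0.0205, 0.0161 and 0.00764 in ICM and at 6.33 and 39.7 in epiblast. Spink3 was at 0.0247, 0.096 and 0.0254 in ICM and at 10.4 and 52.1 in epiblast. Epiblast pool 2 was several times epiblast pool 1 for both, Ttr being a thyroid hormone carrier gene and Spink3 a protease inhibitor gene (log2 fold change 4.09 ± 0.65, adjusted p = 0.00535 for Ttr and 4.55 ± 0.59, adjusted p = 0.0026 for Spink3). Apoa1, an apolipoprotein gene, was at 0.17 to 0.581 in ICM and 8.93 and 18 in epiblast (log2 fold change 3.33 ± 0.33, adjusted p = 0.000969). Apob, also of lipoproteins, was at most 0.0166 in ICM and at 2.97 and 2.96 in epiblast (log2 fold change 1.97 ± 0.27, adjusted p = 0.00305). Afp, alpha-fetoprotein, was at 0.651 and 1.13 in epiblast and was not tested. The part of visceral endoderm RNA in other differences was not tested. Visceral endoderm markers higher and lower numbered 4 and 0 without ICM pool 1, epiblast pool 1 or epiblast pool 2, 5 and 0 without ICM pool 3, and 4 and 2 with libraries scaled to the same sum.

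Trophectoderm and extraembryonic ectoderm markers gave 4 of 19 higher and 7 lower. Cdx2, the trophectoderm factor, was at 0.337 to 1.48 in ICM and 2.16 and 1.58 in epiblast (log2 fold change 0.76 ± 0.35, adjusted p = 0.136). Elf5, of extraembryonic ectoderm, was at 1.35 to 5.13 in ICM and 4.01 and 6.997 in epiblast (log2 fold change 0.69 ± 0.43, adjusted p = 0.254). Neither difference passed the threshold. Krt18, a keratin gene of simple epithelia, was at 10.7 to 26.4 in ICM and 18.5 and 31 in epiblast (log2 fold change 0.39 ± 0.42, adjusted p = 0.502). Krt8 was at 2.37 to 3.48 in ICM and 1.62 and 1.39 in epiblast (log2 fold change -0.60 ± 0.24, adjusted p = 0.0973). Krt19 was the 1 keratin gene of the 3 that rose, from at most 0.996 in ICM to 6.94 and 6.37 in epiblast (log2 fold change 2.58 ± 0.36, adjusted p = 0.00331). Trophectoderm markers higher and lower numbered 0 and 4 without epiblast pool 1, and 3 and 4 without epiblast pool 2. Krt19 lost the call without epiblast pool 1 (adjusted p = 0.059).

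Whether in a list or not, the 12 steepest rises among named genes with a mean of at least 10 in the higher group were Bex4, Bex1, Mns1, Fgf5, Ldhb, Cldn6, Wbp5, Sall2, Tceal8, Ngfrap1, Stxbp6 and Cald1. The 12 steepest falls were Fbp2, Dppa3, Fbxo15, Crxos1, Spp1, Mras, Arl14epl, Fam25c, Ggt1, Dppa2, Stard10 and Tfcp2l1. Mns1 was at 4.39, 0.801 and 3.55 in ICM and at 236 and 332 in epiblast. Mns1, known from the tails of sperm and from cilia, was higher in both epiblast pools (log2 fold change 6.31 ± 0.49, adjusted p = 0.000373). Sall2 was at 0.689, 0.0161 and 0.0799 in ICM and at 77.2 and 41.7 in epiblast. Sall2 encodes a zinc finger factor of the spalt family and was below 1 in every ICM pool (log2 fold change 5.55 ± 0.35, adjusted p = 0.000204). Cald1, a caldesmon gene of the actin skeleton, was at 1.06 to 3.24 in ICM and 135 and 85.9 in epiblast (log2 fold change 5.29 ± 0.38, adjusted p = 0.000289). Stxbp6 was at 64.6 and 26.9 in epiblast and at most 0.122 in ICM (log2 fold change 5.33 ± 0.37, adjusted p = 0.000259). On the falling side, Ggt1, a gene of glutathione breakdown at the cell surface, was at 55.6, 65.6 and 58 in ICM and at 0.437 and 0.145 in epiblast (log2 fold change -5.56 ± 0.23, adjusted p = 8.33e-05). The ICM pools were close together and the epiblast pools were below 1. Arl14epl was at 76 to 98.4 in ICM and 0.655 and 0.598 in epiblast. Fam25c was at 105 to 247 in ICM and 2.6 and 2.29 in epiblast. The lipid transfer gene Stard10 was at 31.3 to 60.7 in ICM and at most 0.105 in epiblast.

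Of the 12 steepest rises 5 belonged to a cluster of X-linked gene families, Bex4, Bex1, Wbp5, Tceal8 and Ngfrap1. RefSeq names Wbp5 and Ngfrap1 as Tceal9 and Bex3. The families are Bex, small adaptor proteins, Tceal, relatives of transcription elongation factor A, Armcx, armadillo repeat proteins of which some sit on mitochondria, and Gprasp, sorting proteins of G protein-coupled receptors. Their genes lie near each other on the X chromosome, and a conserved element near the start of many of them is known. The remaining members were looked up after these 5 had been seen. A stretch of the promoter is shown for 7 members that rose, since the same pair of short words occurs in each. The lines give 24 bases from RefSeq on build GRCm38.p6, in the direction of the gene, with TGAC and CACGTG in capitals and 8 bases between them.
Armcx1, chrX:134717920-134717943, plus strand: tggTGACgtgcccctCACGTGagc
Armcx6, chrX:134751437-134751460, minus strand: tggTGACgtggctgtCACGTGacc
Bex1, chrX:136215508-136215531, minus strand: ttcTGACgcaagtggCACGTGact
Bex4, chrX:136138972-136138995, plus strand: ttcTGACgcaagtggCACGTGact
Tceal5, chrX:136203891-136203914, minus strand: tggTGACgttcctgtCACGTGatc
Tceal6, chrX:135210693-135210716, minus strand: gggTGACgctttgctCACGTGact
Tceal7, chrX:136223966-136223989, plus strand: agaTGACataatcctCACGTGatt
The first base of CACGTG lies from 60 to 3 bases before a gene start in these 7, and in Armcx1 and Bex1 the word crosses the start. In Tceal5 it also lies 167 bases before another start of the gene. The Bex1 and Bex4 stretches are the same. The pattern TGACNNNNNNNNCACGTG, read on both strands, was found by looking at these promoters. It occurred in 9 of the 19 members with a promoter in the table (47.4%) and in 31 of all 27025 gene symbols (0.115%). By promoter, it occurred in 33 of all 32851 of 300 bases (0.1%). The other members with the pattern were Tceal3 and Tceal8. In Tceal8 CACGTG lies beyond the start, and in Tceal3 it lies beyond one start and 233 bases before another. Outside the families 22 genes held it, and of the 8 of these that were tested 1 rose, 2 fell and 5 were not called. CACGTG alone occurred in 12 of the 19 (63.2%) and in 8.09% of all gene symbols. A match of letters is a description and does not show binding.

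Of the 20 family members 19 were tested, 18 rose and 0 fell, with a median log2 fold change of 2.52. This is a description, since 5 of the 18 prompted the look at the families and 11 of the 18 reached 1 in epiblast only. Bex4 was at 0.289, 0.316 and 0.426 in ICM and at 192 and 124 in epiblast. Bex1 was at 0.622, 0.887 and 0.676 in ICM and at 226 and 139 in epiblast. Ngfrap1 was at 29.4, 12 and 31.3 in ICM and at 967 and 937 in epiblast. The first pair were below 1 in every ICM pool, and Ngfrap1 was already present in ICM and became one of the more abundant transcripts of the epiblast. Their log2 fold changes were 6.85 ± 0.26, adjusted p = 8.33e-05 for Bex4, 6.69 ± 0.28, adjusted p = 8.33e-05 for Bex1 and 5.35 ± 0.43, adjusted p = 0.000426 for Ngfrap1. Bex2 was at 0.758 to 1.45 in ICM and 86.6 and 61.6 in epiblast (log2 fold change 5.18 ± 0.27, adjusted p = 0.000111). Bex1 and Bex2 are near copies, and no source used here says how reads were divided between them. Wbp5 was at 0.69, 0.871 and 1.36 in ICM and at 119 and 77.6 in epiblast. Tceal8 was at 1.65, 0.465 and 0.283 in ICM and at 91.2 and 61.2 in epiblast. Both lay far above ICM in each epiblast pool (log2 fold change 5.63 ± 0.28, adjusted p = 0.000111 for Wbp5 and 5.47 ± 0.37, adjusted p = 0.000239 for Tceal8). Tceal7 was at 0.243 to 0.449 in ICM and 6.7 and 9.21 in epiblast (log2 fold change 2.73 ± 0.25, adjusted p = 0.000682). Tceal3, Tceal5 and Tceal6 were below 0.02 in all ICM pools and at 2.37 to 6.49 in epiblast, with log2 fold changes of 1.89, 2.54 and 1.84. Tceal1 was at 0.779 and 2.07 in epiblast and was not tested.

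Among Armcx genes, Armcx2, Armcx3, Armcx4 and Armcx6 were at most 0.508 in ICM and at 1.59 to 8.77 in epiblast, with log2 fold changes of 2.86, 2.09, 2.52 and 1.49. Armcx1 was at 1.18 to 1.6 in ICM and 4.9 and 6.27 in epiblast (log2 fold change 1.49 ± 0.23, adjusted p = 0.00497). The exception was Armcx5, at 1.12 to 2.56 in ICM and 0.987 and 1.72 in epiblast, with overlapping groups (log2 fold change -0.33 ± 0.32, adjusted p = 0.447). The Gprasp family had the lowest median, 1.25, beside 6.02 for Bex, 2.63 for Tceal and 1.79 for Armcx. Gprasp1 was at 2.18 to 3.2 in ICM and 6.72 and 5.76 in epiblast (log2 fold change 0.97 ± 0.23, adjusted p = 0.0206). Gprasp2 was at 0.0532 to 0.519 in ICM and 2.01 and 1.85 in epiblast (log2 fold change 1.25 ± 0.30, adjusted p = 0.0221). Bhlhb9 was at 0.152 to 1.73 in ICM and 4.3 and 3.91 in epiblast (log2 fold change 1.44 ± 0.39, adjusted p = 0.0308). Among genes whose chromosome RefSeq's table gave, 214 of 814 tested on the X rose (26.3%) and 100 fell (12.3%), with a median of 0.371. Autosomes had 16.8% of 13396 genes higher, 16.1% lower and a median of 0.0955. Without the 4 families the X shares were 24.7% and 12.6%. The female and male make-up of each pool is unknown. Gprasp2 and Bhlhb9 lost their call without ICM pool 3 (adjusted p from 0.0531 to 0.0594). Gprasp1, Gprasp2 and Bhlhb9 lost their call without epiblast pool 1 (adjusted p from 0.0896 to 0.178). Armcx1, Gprasp1, Gprasp2 and Bhlhb9 lost their call without epiblast pool 2 (adjusted p from 0.0504 to 0.145).

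**Figure D4:**
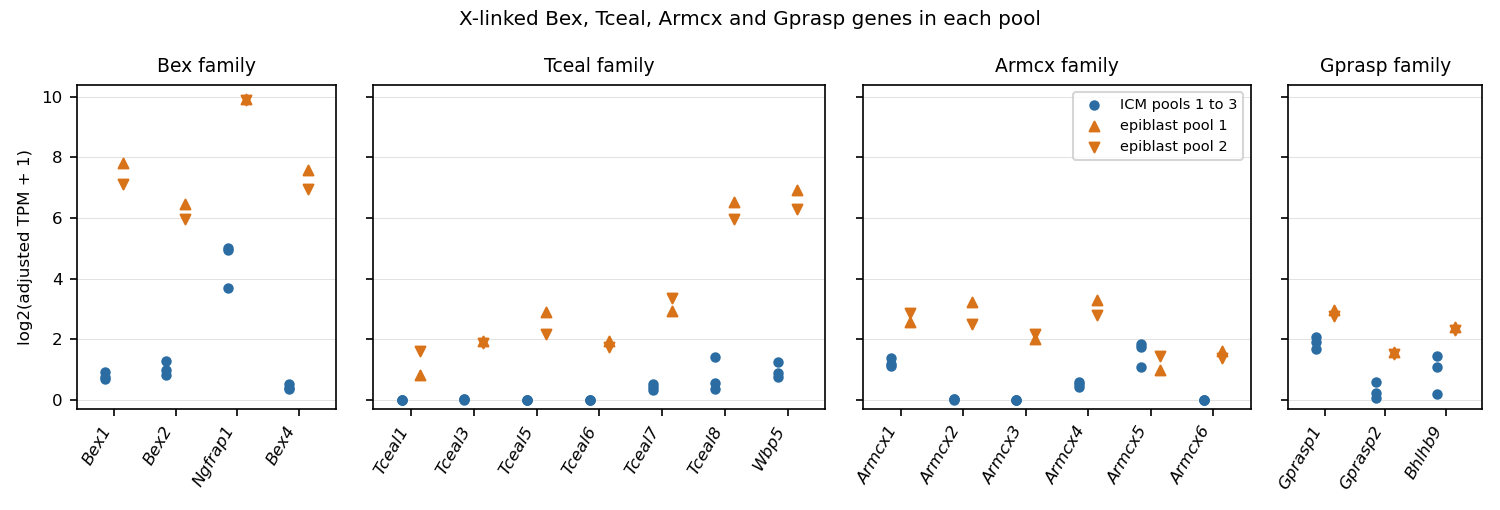
Level as log2(adjusted TPM + 1) (vertical) of 20 X-linked genes in 3 ICM pools (circles) and 2 epiblast pools (triangles), by family. Both epiblast pools lie above all ICM pools for every gene shown except Armcx5, as they do for 35.5% of all tested genes.

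Of 7 tested genes of X inactivation 1 was higher (14.3%, beside 17.3% of all genes) and 0 lower, with a median of 0.22. Xist was at 29.4, 25 and 44.5 in ICM and at 76 and 45.2 in epiblast. Xist, the RNA that coats the inactive X chromosome, was higher in both epiblast pools than in any ICM pool, without passing the threshold (log2 fold change 0.85 ± 0.35, adjusted p = 0.106). Ftx, a long RNA gene of the same centre, was at 0.491 to 1.08 in ICM and 3.09 and 3.93 in epiblast (log2 fold change 1.41 ± 0.27, adjusted p = 0.0107). Eif2s3y rose as well (log2 fold change 1.17 ± 0.31, adjusted p = 0.0284). Eif2s3y lost the call without ICM pool 3 (adjusted p = 0.0605). Ftx and Eif2s3y lost their call without epiblast pool 1 or epiblast pool 2 (adjusted p from 0.0638 to 0.156).

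Imprinted genes, expressed from one parental copy, rose in 14 of 22 tested and fell in 1, with a median of 1.63. Of 10 tested maternally expressed members 9 rose, and of 12 paternally expressed members 5. Cd81 was at 0.686, 0.734 and 0.628 in ICM and at 28.8 and 24.6 in epiblast. Grb10 was at 1.02, 2.11 and 1.4 in ICM and at 39.6 and 36.2 in epiblast. Cd81, a tetraspanin gene, and Grb10, an adaptor that restrains insulin signalling, were low in all ICM pools and alike in both epiblast pools (log2 fold change 4.04 ± 0.21, adjusted p = 0.000111 for Cd81 and 3.97 ± 0.26, adjusted p = 0.000219 for Grb10). Peg10 was at 0.697, 1.25 and 1.03 in ICM and at 20.9 and 21.3 in epiblast. Peg10, a gene derived from a retrotransposon and needed in placenta, was also higher in both epiblast pools (log2 fold change 3.48 ± 0.22, adjusted p = 0.000213). H19, a growth-restraining RNA, was at 4.15 to 9.22 in ICM and 74.1 and 73.2 in epiblast (log2 fold change 3.33 ± 0.33, adjusted p = 0.000958). Its neighbour Igf2, a growth factor gene, was at 0.777 to 3.09 in ICM and 7.51 and 6.75 in epiblast (log2 fold change 1.54 ± 0.36, adjusted p = 0.0207). H19 and Igf2 were picked after their values were seen. The single fall was Igf2r, the receptor that clears IGF2, at 10.5, 9.87 and 9.29 in ICM and at 3.19 and 4.44 in epiblast (log2 fold change -1.19 ± 0.23, adjusted p = 0.0105). Of the 14 that rose 5 reached 1 in epiblast only. Imprinted genes higher and lower numbered 9 and 0 without epiblast pool 1. Igf2 and Igf2r lost their call without epiblast pool 1 (adjusted p from 0.102 to 0.156). Igf2 lost the call without epiblast pool 2 (adjusted p = 0.122).

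Genes of DNA methylation changed in both directions, 5 of 18 tested higher and 8 lower. Dnmt3a was at 70.3, 54.2 and 74.1 in ICM and at 295 and 225 in epiblast. Dnmt3b was at 21, 24.1 and 32.9 in ICM and at 347 and 158 in epiblast. The 2 methyltransferases that set new methylation at implantation were thus higher in both epiblast pools (log2 fold change 1.96 ± 0.27, adjusted p = 0.00346 for Dnmt3a and 3.15 ± 0.39, adjusted p = 0.00235 for Dnmt3b). Their cofactor gene Dnmt3l was lower, at 19.8 to 24.2 in ICM and 10.4 and 10.7 in epiblast (log2 fold change -1.03 ± 0.23, adjusted p = 0.0174). Uhrf1 was at 175, 169.9 and 216 in ICM and at 34.5 and 23.8 in epiblast. Uhrf1, which brings the maintenance enzyme to replicated DNA, was lower in both epiblast pools (log2 fold change -2.66 ± 0.28, adjusted p = 0.00121). Its relative Uhrf2 was at 6.18 to 7.46 in ICM and 21.9 and 24.6 in epiblast (log2 fold change 1.61 ± 0.22, adjusted p = 0.00338). Tet2 was at 55.2, 44.2 and 63.2 in ICM and at 0.647 and 0.573 in epiblast. Tet1 was at 121, 93.2 and 148 in ICM and at 28.5 and 29.4 in epiblast. Of these oxidases of methylcytosine, Tet2 dropped below 1 and Tet1 remained at about 29 in both epiblast pools (log2 fold change -5.08 ± 0.25, adjusted p = 0.000111 for Tet2 and -2.001 ± 0.28, adjusted p = 0.00346 for Tet1). Zfp57, which protects imprints, was at 47 to 53.4 in ICM and 2.79 and 3.21 in epiblast (log2 fold change -3.68 ± 0.22, adjusted p = 0.000185). DNA methylation genes higher and lower numbered 3 and 5 without ICM pool 1, 3 and 6 without ICM pool 3, 2 and 4 without epiblast pool 1, and 4 and 5 without epiblast pool 2. Dnmt3l lost the call without ICM pool 1 or epiblast pool 2 (adjusted p from 0.0568 to 0.0865). Dnmt3a, Dnmt3l and Tet1 lost their call without epiblast pool 1 (adjusted p from 0.0535 to 0.108).

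Polycomb genes gave 7 of 23 higher (30.4%) and 5 lower (21.7%), beside 17.3% and 14.8% of all genes. Jarid2, a partner of the PRC2 complex, was at 189.9 to 246 in ICM and 71.3 and 39.4 in epiblast (log2 fold change -1.95 ± 0.33, adjusted p = 0.0065). Suz12, a core subunit gene of the complex, was at 53.5 to 80.2 in ICM and 27.5 and 18.7 in epiblast (log2 fold change -1.49 ± 0.30, adjusted p = 0.012). Both fell. The PRC1 gene Phc1 was at 4.65, 3.37 and 15.2 in ICM and at 35.4 and 35 in epiblast (log2 fold change 2.30 ± 0.54, adjusted p = 0.0204). ICM pool 3 stood above the other ICM pools and below both epiblast pools. The list of histone variant genes, which also holds other histone genes, had 5 of 14 higher and 6 lower. H2afy, the macroH2A gene, was at 39 to 45.1 in ICM and 4.02 and 4.3 in epiblast (log2 fold change -3.04 ± 0.22, adjusted p = 0.000311). H3f3a, a gene of a replacement histone, was at 24.8 to 54.3 in ICM and 425 and 191 in epiblast (log2 fold change 3.02 ± 0.46, adjusted p = 0.00474). The linker histone gene H1f0 was at 1.58 to 2.53 in ICM and 19.5 and 12.3 in epiblast (log2 fold change 2.43 ± 0.28, adjusted p = 0.00172). The macroH2A gene thus fell and the other two rose. Polycomb genes higher and lower numbered 3 and 4 without ICM pool 1, 4 and 7 without ICM pool 2, 4 and 4 without ICM pool 3, 0 and 1 without epiblast pool 1, 2 and 1 without epiblast pool 2, 3 and 6 with libraries scaled to the same sum, and 5 and 7 with quantile normalization. Histone variant genes higher and lower numbered 1 and 4 without epiblast pool 1. Phc1 lost the call without ICM pool 1 (adjusted p = 0.0589). Suz12, Phc1 and H3f3a lost their call without epiblast pool 1 (adjusted p from 0.0597 to 0.152). Suz12 and Phc1 lost their call without epiblast pool 2 (adjusted p from 0.0905 to 0.136).

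Of 31 germline genes known for silencing by promoter methylation at implantation, 14 were below 1 in every pool, 12 were tested, 4 fell and 1 rose. The promoters of these genes are known for E-box and E2F words, and both strands were read. Of 27 genes with a RefSeq promoter, 15 held CACGTG in any promoter (55.6%, beside 8.09% of all gene symbols). GCGGGAA was held by 9 (33.3%, beside 5.29%). The median number of CG pairs was 22 in these genes, taking the largest per gene, and 7 over all single promoters. Both words contain CG, and the part of CG content in these shares was not tested. CACGTG was held by 3 of the 4 that fell, by the 1 that rose, by 2 of the 5 that were tested and not called and by 9 of the 17 that were not tested. The 3 that fell are shown as 30 bases from RefSeq on build GRCm38.p6, in the direction of the gene, with the word in capitals.
Fkbp6, chr5:135350128-135350157, minus strand: tgcgcctgccatCACGTGtgcagcgcgtgc
Stk31, chr6:49395472-49395501, plus strand: aggccggccaccCACGTGaccagggctgcg
Stag3, chr5:138280327-138280356, plus strand: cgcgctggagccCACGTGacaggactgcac
Fkbp6 was at 30.7, 26.2 and 27.2 in ICM and at 1.67 and 1.19 in epiblast. Stk31 was at 6.25, 10.6 and 6.43 in ICM and at 0.113 and 0.181 in epiblast. Fkbp6, a chaperone of the piRNA pathway, and Stk31, a kinase-like gene of germ cells, were thus low in both epiblast pools (log2 fold change -3.58 ± 0.23, adjusted p = 0.000204 for Fkbp6 and -2.90 ± 0.28, adjusted p = 0.000888 for Stk31). Stag3, a meiotic cohesin gene picked after its values were seen, was at 4.64 to 8.37 in ICM and 2.05 and 1.69 in epiblast (log2 fold change -1.31 ± 0.27, adjusted p = 0.0141). Rpl10l, a ribosomal protein gene of testis, was the fourth to fall, at 7.16 to 16.3 in ICM and 1.36 and 1.23 in epiblast (log2 fold change -2.43 ± 0.34, adjusted p = 0.0034). The gene that rose, Tdrd1, was at 1.57 and 1.96 in epiblast and at most 0.023 in ICM (log2 fold change 1.45 ± 0.29, adjusted p = 0.0123). Dazl and Mael, often used to follow this silencing, were at most 0.513 and 1.27 in any pool and were not tested. Germline genes higher and lower numbered 1 and 2 without epiblast pool 1 or epiblast pool 2. Stag3 and Rpl10l lost their call without epiblast pool 1 or epiblast pool 2 (adjusted p from 0.0529 to 0.113).

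Oocyte and cleavage-stage genes fell in 11 of 12 tested, rose in 0, and had a median of -4.63, and 9 of the 11 reached 1 in ICM only. Crxos1 was at 124, 111 and 154 in ICM and at 0.215 and 0.25 in epiblast. Pramel5 was at 25.4, 22 and 32.7 in ICM and at 0.0336 and 0.0598 in epiblast. Crxos1, a homeobox gene of the early embryo, and Pramel5, of the Prame family, were thus well measured in ICM and below 1 in epiblast (log2 fold change -6.72 ± 0.25, adjusted p = 8.33e-05 for Crxos1 and -4.71 ± 0.24, adjusted p = 0.000111 for Pramel5). Genes of the Pramel family are near copies of each other, and no source used here says how their reads were divided.

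Glycolysis and lactate genes rose in 14 of 28 tested and fell in 3, with a median of 1.11. Ldha was at 14.1, 10.4 and 22.9 in ICM and at 499 and 446 in epiblast. Ldhb was at 0.332, 0.865 and 0.21 in ICM and at 123 and 78.3 in epiblast. The lactate dehydrogenase genes were thus high in both epiblast pools, Ldhb from a level below 1 in every ICM pool (log2 fold change 4.88 ± 0.35, adjusted p = 0.00029 for Ldha and 6.10 ± 0.30, adjusted p = 0.000111 for Ldhb). Slc16a3, the transporter gene MCT4 that exports lactate, was at 0.113 to 0.259 in ICM and 14 and 21.8 in epiblast (log2 fold change 3.95 ± 0.26, adjusted p = 0.000228). Pgk1 was at 28.7, 10.8 and 29.5 in ICM and at 609 and 563 in epiblast. Eno1 was at 5.72, 12.6 and 9.89 in ICM and at 162 and 123 in epiblast. Both encode enzymes of the payoff stage, and both were picked after their values were seen (log2 fold change 4.73 ± 0.45, adjusted p = 0.000811 for Pgk1 and 3.83 ± 0.35, adjusted p = 0.000714 for Eno1). Pgam1, the mutase gene between them and likewise picked, was at 90.2 to 145 in ICM and 2004 and 1077 in epiblast (log2 fold change 3.70 ± 0.36, adjusted p = 0.000917). Pgk1, Eno1 and Pgam1 have near copies in the genome, so reads may have been divided among them. Glycolysis genes higher and lower numbered 9 and 1 without epiblast pool 1, and 8 and 3 without epiblast pool 2.

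Glucose entry changed less. Slc2a1, the GLUT1 transporter gene, was at 39, 57.6 and 53.8 in ICM and at 149 and 146 in epiblast (log2 fold change 1.56 ± 0.27, adjusted p = 0.0075). Slc2a3, the GLUT3 gene, was at 22.4 to 25.8 in ICM and 36.5 and 45.7 in epiblast and missed the threshold (log2 fold change 0.75 ± 0.24, adjusted p = 0.0532). Hif1a, the oxygen-sensitive activator of glycolysis genes, was at 10.2 to 12 in ICM and 23.7 and 19.2 in epiblast (log2 fold change 0.89 ± 0.23, adjusted p = 0.0281). Fbp2 was at 699, 284 and 551 in ICM and at 0.147 and 0.529 in epiblast. Fbp2, a fructose bisphosphatase gene that acts against glycolysis, had the steepest fall of all named genes and was below 1 in both epiblast pools (log2 fold change -8.50 ± 0.41, adjusted p = 0.000111). Pdk2, the gene of a kinase that inhibits pyruvate dehydrogenase, was at 8.49 to 19.8 in ICM and 0.0224 and 0.914 in epiblast (log2 fold change -3.23 ± 0.42, adjusted p = 0.0026). Its relative Pdk1 was at 1.5 to 8.59 in ICM and 5.09 and 4.13 in epiblast, with overlapping groups (log2 fold change 0.44 ± 0.56, adjusted p = 0.572). Of 15 hypoxia targets 4 rose (26.7%) and 3 fell (20.0%), beside 17.3% and 14.8% of all genes. Bnip3, a mitophagy gene, was at 2.12 to 4.01 in ICM and 26.4 and 17.8 in epiblast (log2 fold change 2.45 ± 0.30, adjusted p = 0.0023). Epas1, which encodes HIF2 alpha, was at 3.83 to 6.16 in ICM and 0.0748 and 0.157 in epiblast (log2 fold change -2.38 ± 0.26, adjusted p = 0.00147). Hypoxia targets higher and lower numbered 2 and 3 without ICM pool 3, 0 and 2 without epiblast pool 1, 1 and 3 without epiblast pool 2, and 3 and 4 with libraries scaled to the same sum. Hif1a lost the call without ICM pool 1 or ICM pool 3 (adjusted p from 0.0642 to 0.0848). Slc2a1, Hif1a, Pdk2 and Bnip3 lost their call without epiblast pool 1 (adjusted p from 0.0521 to 0.16). Slc2a1 and Hif1a lost their call without epiblast pool 2 (adjusted p from 0.0575 to 0.0817).

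**Figure D5:**
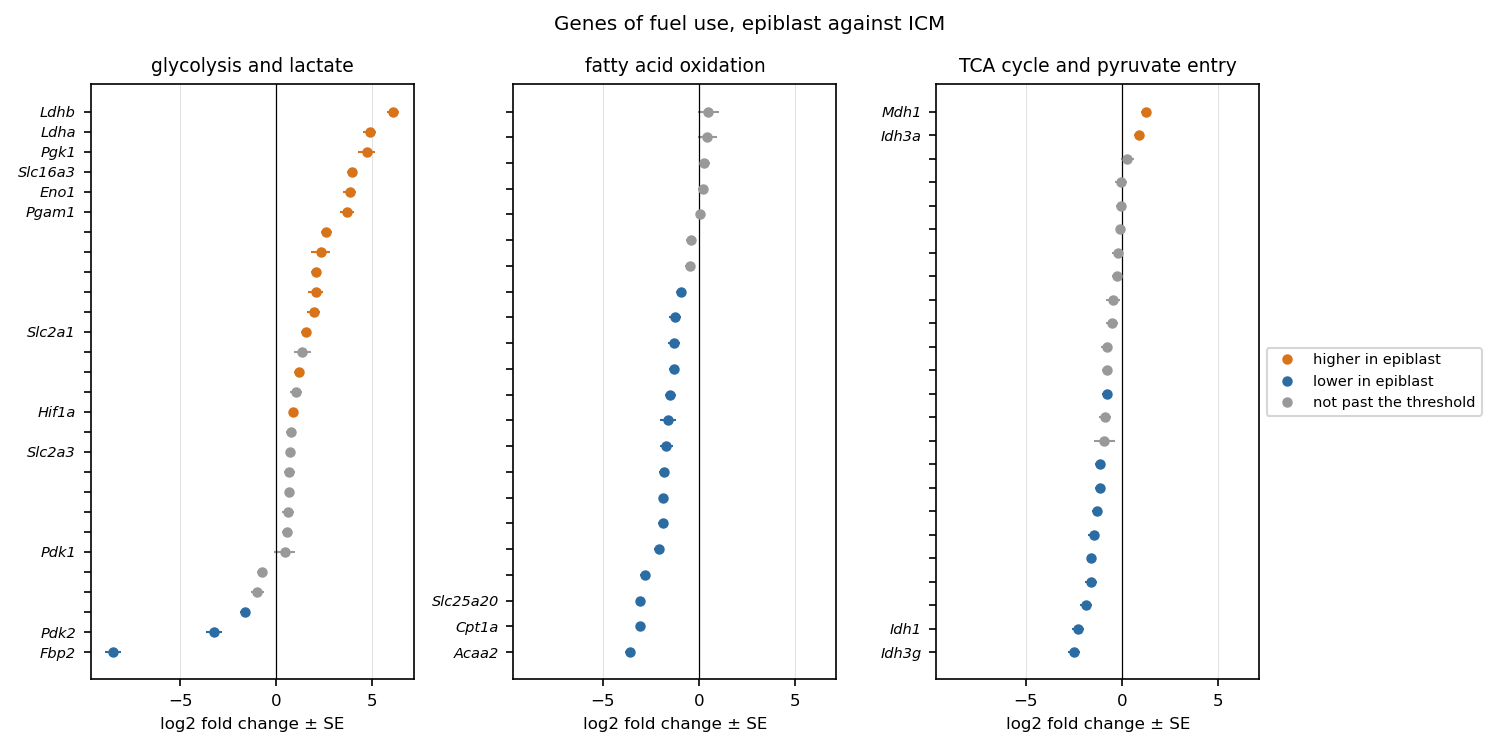
Log2 fold change of epiblast relative to ICM with its SE (horizontal) for each tested gene (vertical, with names for the genes described here) of glycolysis and lactate, fatty acid oxidation and the TCA cycle, colored by whether it passed the threshold. Most called glycolysis genes lie to the right of 0, and all 15 called genes of fatty acid oxidation to the left.

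Fatty acid oxidation genes fell in 15 of 22 tested and rose in 0, with a median of -1.41. Cpt1a was at 12.2, 11.6 and 13.2 in ICM and at 0.573 and 0.553 in epiblast. Slc25a20 was at 34.9, 30.3 and 33 in ICM and at 3.11 and 2.93 in epiblast. Acaa2 was at 43.4, 35.2 and 55.4 in ICM and at 2.83 and 2.7 in epiblast. Cpt1a and Slc25a20 encode the carnitine steps that carry fatty acids into mitochondria, and Acaa2 the last enzyme of the cycle. All of their ICM pools lay far above both epiblast pools (log2 fold change -3.09 ± 0.20, adjusted p = 0.00023 for Cpt1a, -3.07 ± 0.22, adjusted p = 0.00029 for Slc25a20 and -3.58 ± 0.27, adjusted p = 0.000326 for Acaa2). Fatty acid oxidation genes higher and lower numbered 0 and 6 without epiblast pool 1, and 0 and 9 without epiblast pool 2.

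In the lipid droplet and fatty acid synthesis list 2 of 19 rose and 5 fell. Plin2 was at 129, 103 and 125 in ICM and at 3.75 and 4.01 in epiblast. Plin2, the coat protein gene of lipid droplets, was thus lower in both epiblast pools (log2 fold change -4.62 ± 0.24, adjusted p = 0.000111). The elongase gene Elovl6 was at 29.8 to 32.2 in ICM and 7.5 and 7.55 in epiblast (log2 fold change -1.91 ± 0.22, adjusted p = 0.00174). Acsl4, which activates polyunsaturated fatty acids, was at 0.485 to 1.59 in ICM and 17.5 and 10.2 in epiblast (log2 fold change 2.76 ± 0.35, adjusted p = 0.00239). Elovl6 thus fell and Acsl4 rose. Cholesterol synthesis had 5 of 24 higher (20.8%) and 1 lower (4.17%), beside 17.3% and 14.8% of all genes. Idi1 was at 3.13 to 6.85 in ICM and 40.1 and 22.1 in epiblast (log2 fold change 2.59 ± 0.39, adjusted p = 0.00461). Cyp51 was at 2.89 to 3.87 in ICM and 11.7 and 13.1 in epiblast (log2 fold change 1.62 ± 0.22, adjusted p = 0.00309). Both encode enzymes of the pathway. Lipid genes higher and lower numbered 3 and 2 without ICM pool 1, 3 and 3 without ICM pool 3, 0 and 2 without epiblast pool 1, and 2 and 2 without epiblast pool 2. Cholesterol genes higher and lower numbered 5 and 3 without ICM pool 2, 2 and 0 without epiblast pool 1, and 5 and 3 with libraries scaled to the same sum. Acsl4, Idi1 and Cyp51 lost their call without epiblast pool 1 (adjusted p from 0.0503 to 0.0773).

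Of 24 tested genes of the TCA cycle and pyruvate entry 10 fell and 2 rose, with a median of -0.79. Idh3g was at 340.4, 229.9 and 411 in ICM and at 53.2 and 58.7 in epiblast. The gamma subunit gene of the NAD-linked isocitrate dehydrogenase was lower in both epiblast pools (log2 fold change -2.49 ± 0.31, adjusted p = 0.00239), but its catalytic subunit gene Idh3a was higher, at 4.43 to 6.13 in ICM and 11 and 10.4 in epiblast (log2 fold change 0.88 ± 0.23, adjusted p = 0.0274). Mdh1, the malate dehydrogenase of the cytosol, was at 13.1 to 20.1 in ICM and 34.3 and 43.2 in epiblast (log2 fold change 1.26 ± 0.28, adjusted p = 0.017). Idh1, the cytosolic NADP-linked enzyme gene, was at 33.1 to 56 in ICM and 9.47 and 7.13 in epiblast (log2 fold change -2.29 ± 0.30, adjusted p = 0.00274). The 2 rises of the list were thus Mdh1 and Idh3a. TCA cycle genes higher and lower numbered 0 and 9 without ICM pool 1, 1 and 8 without ICM pool 3, 0 and 2 without epiblast pool 1, and 0 and 5 without epiblast pool 2. Idh3a and Mdh1 lost their call without ICM pool 1 or epiblast pool 2 (adjusted p from 0.0525 to 0.123). Idh3a lost the call without ICM pool 3 (adjusted p = 0.0552). Idh3g, Idh3a and Mdh1 lost their call without epiblast pool 1 (adjusted p from 0.0506 to 0.158).

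Of 70 nuclear-encoded genes of the respiratory chain 3 were higher (4.29%) and 16 lower (22.9%), with a median of -0.15. None of 30 complex I genes was higher and 9 were lower, while 3 of 15 genes of complex V, the ATP synthase, were higher and 0 lower. Cox4i1 and Cox6a1, of cytochrome oxidase, were at 546 to 821 and 322 to 459 in ICM and at 189 and 169 and 69.6 and 50.02 in epiblast (log2 fold change -1.91 ± 0.27, adjusted p = 0.00368 for Cox4i1 and -2.64 ± 0.29, adjusted p = 0.00149 for Cox6a1). Atp5g2, a ring subunit gene of the synthase, was at 8.49 to 11.9 in ICM and 51.1 and 24.4 in epiblast (log2 fold change 1.73 ± 0.35, adjusted p = 0.0129). Of 13 genes encoded in mitochondrial DNA 5 fell and 0 rose, with a median of -1.02. mt-Cytb was at 4975, 2839 and 4533 in ICM and at 706 and 769 in epiblast. Both epiblast pools were well under each ICM pool (log2 fold change -2.44 ± 0.30, adjusted p = 0.00236). The 13 genes summed to 28200, 14200 and 27200 in ICM and to 7050 and 7610 in epiblast. All genes with a symbol starting with mt-, which are more than these 13, held 2.01% and 2.03% of all summed values in epiblast. In ICM they held 8.45% to 11.7%. Nuclear-encoded respiratory genes higher and lower numbered 1 and 10 without ICM pool 1, 6 and 12 without ICM pool 3, 0 and 2 without epiblast pool 1, 1 and 5 without epiblast pool 2, and 8 and 15 with quantile normalization. Mitochondrially encoded genes higher and lower numbered 0 and 3 without ICM pool 1 or ICM pool 3, 0 and 9 without ICM pool 2, 0 and 0 without epiblast pool 1, and 0 and 2 without epiblast pool 2. Cox4i1, Atp5g2 and mt-Cytb lost their call without epiblast pool 1 (adjusted p from 0.0524 to 0.093).

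Amino acid transporters changed sharply in both directions, 4 of 15 tested higher and 6 lower. Slc38a1 was at 0.328, 0.262 and 0.457 in ICM and at 18.5 and 20.2 in epiblast. Slc38a2 was at 3.97, 3.35 and 4.29 in ICM and at 32.6 and 33.2 in epiblast. These genes encode glutamine carriers driven by sodium, and each epiblast pool stood far above each ICM pool (log2 fold change 3.91 ± 0.21, adjusted p = 0.00012 for Slc38a1 and 2.80 ± 0.22, adjusted p = 0.000397 for Slc38a2). Slc7a3, a carrier of arginine and lysine, was at 17.3 to 24.4 in ICM and 73.8 and 95.1 in epiblast (log2 fold change 2.03 ± 0.27, adjusted p = 0.00291). Slc1a1 was at 12, 21.7 and 15.4 in ICM and at 0.113 and 0.125 in epiblast. Slc1a1, a glutamate and aspartate carrier gene, was thus nearly absent from epiblast (log2 fold change -3.92 ± 0.28, adjusted p = 0.000291). Slc38a4 was at 33.6 to 40.6 in ICM and 6.83 and 9.94 in epiblast (log2 fold change -2.03 ± 0.26, adjusted p = 0.0024). Slc7a6 was at 12.4 to 16.8 in ICM and 4.08 and 3.91 in epiblast (log2 fold change -1.59 ± 0.23, adjusted p = 0.00399). In the serine, glycine and folate list 3 of 19 rose and 4 fell. Tdh, the threonine dehydrogenase gene on which mouse naive cells depend, was at 5.67 to 12 in ICM and 1.1 and 1.34 in epiblast (log2 fold change -2.16 ± 0.32, adjusted p = 0.00427). Amino acid transporters higher and lower numbered 3 and 2 without epiblast pool 1. Serine, glycine and folate genes higher and lower numbered 3 and 2 without ICM pool 1, 1 and 1 without epiblast pool 1, 2 and 1 without epiblast pool 2, 2 and 6 with libraries scaled to the same sum, and 4 and 3 with quantile normalization. Slc7a6 and Tdh lost their call without epiblast pool 1 (adjusted p from 0.0579 to 0.0779). Tdh lost the call without epiblast pool 2 (adjusted p = 0.0529).

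Of 34 tested nutrient sensing genes of mTORC1 and AMPK 6 were higher (17.6%, near the 17.3% of all genes) and 9 lower (26.5%, beside 14.8%). Mtor was at 5.41, 4.83 and 4.83 in ICM and at 4.24 and 3.2 in epiblast. The kinase gene itself was lower in both epiblast pools than in any ICM pool by a margin that did not pass the test (log2 fold change -0.36 ± 0.22, adjusted p = 0.239). Rragd was at 5.27, 1.8 and 2.9 in ICM and at 38 and 36.1 in epiblast. Rragd, a Rag GTPase gene that brings mTORC1 to lysosomes, rose (log2 fold change 3.21 ± 0.36, adjusted p = 0.00156). Rraga, of the same GTPase family, was at 8.85 to 12.5 in ICM and 74.5 and 27.2 in epiblast (log2 fold change 2.00 ± 0.43, adjusted p = 0.0152). Tfe3, a lysosomal transcription factor gene, was at 2.85 to 6.98 in ICM and 17.3 and 14.1 in epiblast (log2 fold change 1.56 ± 0.34, adjusted p = 0.0161). Ulk1 was at 12.1, 13.2 and 11.7 in ICM and at 1.21 and 0.962 in epiblast. Ulk1 encodes the kinase that starts autophagy, and its epiblast pools were near 1 (log2 fold change -2.68 ± 0.21, adjusted p = 0.000391). Of 8 tested genes of LKB1 and AMPK 4 fell and 0 rose, among them 2 subunit genes. Prkab1 was at 19.1 to 27.9 in ICM and 4.6 and 4.59 in epiblast (log2 fold change -2.15 ± 0.25, adjusted p = 0.00187). Prkag1 was at 11.7 to 15.9 in ICM and 2.14 and 2.7 in epiblast (log2 fold change -2.05 ± 0.24, adjusted p = 0.00184). Among catalytic subunit genes, Prkaa2 was below 0.74 in every pool and was not tested, and Prkaa1 is not described here. Nutrient sensing genes higher and lower numbered 4 and 5 without ICM pool 1, 3 and 7 without ICM pool 3, 1 and 3 without epiblast pool 1, and 5 and 4 without epiblast pool 2. Rraga and Tfe3 lost their call without epiblast pool 1 (adjusted p from 0.0869 to 0.145). Tfe3 lost the call without epiblast pool 2 (adjusted p = 0.0939). The log2 fold change of Rraga was 1.29 without epiblast pool 1.

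Autophagy and lysosome genes fell in 20 of 33 tested and rose in 4, with a median of -1.58. Gabarapl2 was at 215, 220.0 and 240.1 in ICM and at 12.9 and 9.61 in epiblast. Glb1 was at 24.8, 18.1 and 21.2 in ICM and at 0.624 and 0.468 in epiblast. Cd63 was at 278, 275 and 335 in ICM and at 22.9 and 21.9 in epiblast. Gabarapl2 is an ATG8 family gene, Glb1 encodes lysosomal beta-galactosidase and Cd63 a tetraspanin of late endosomes. All 3 were abundant in each ICM pool and at a small part of that in epiblast (log2 fold change -4.22 ± 0.25, adjusted p = 0.000168 for Gabarapl2, -3.84 ± 0.23, adjusted p = 0.000182 for Glb1 and -3.66 ± 0.24, adjusted p = 0.00023 for Cd63). Gabarapl1, of the same ATG8 family, was at 6.26 to 7.56 in ICM and 19.5 and 23.4 in epiblast (log2 fold change 1.52 ± 0.23, adjusted p = 0.00432). The cathepsin gene Ctsz was at 3.04 to 7.91 in ICM and 19 and 21.6 in epiblast (log2 fold change 1.87 ± 0.35, adjusted p = 0.0101). With Tfe3 these were 3 of the 4 that rose. Autophagy and lysosome genes higher and lower numbered 1 and 11 without epiblast pool 1, and 1 and 15 without epiblast pool 2. Ctsz lost the call without epiblast pool 1 or epiblast pool 2 (adjusted p from 0.0965 to 0.0971).

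Among genes of G1 and S phase 7 of 15 tested activators rose and 1 fell, and of 7 inhibitors 1 rose and 0 fell. Ccnd1 was at 4.44, 1.49 and 5.34 in ICM and at 65.1 and 50.7 in epiblast. Ccnd2 was at 0.115, 0.198 and 0.124 in ICM and at 5.17 and 5.69 in epiblast. D-type cyclins drive entry into S phase, and Ccnd2 was below 0.2 in every ICM pool (log2 fold change 3.73 ± 0.42, adjusted p = 0.00171 for Ccnd1 and 2.49 ± 0.24, adjusted p = 0.000908 for Ccnd2). E2f3 was at 2.65 to 2.96 in ICM and 12 and 14.8 in epiblast (log2 fold change 1.90 ± 0.21, adjusted p = 0.00167). E2f1 was at 18 to 28.6 in ICM and 8.4 and 10.4 in epiblast (log2 fold change -1.17 ± 0.28, adjusted p = 0.0206). These relatives, both activators of S phase genes, moved in opposite directions. Mycn was at 3.72, 1.69 and 4.88 in ICM and at 52.2 and 13.5 in epiblast. The epiblast pools differed widely for Mycn, a growth-promoting factor (log2 fold change 2.72 ± 0.58, adjusted p = 0.0153). Myc was at 7.3 to 13 in ICM and 12.3 and 6.16 in epiblast, with overlapping groups (log2 fold change -0.13 ± 0.36, adjusted p = 0.805). Lists of DNA replication (7 of 42 higher, 4 lower) and of G2 and mitosis (7 of 34 higher, 4 lower) were near the shares of all genes. Pcna, the replication clamp gene, was at 271 to 306 in ICM and 617 and 948 in epiblast (log2 fold change 1.38 ± 0.28, adjusted p = 0.0121). Gmnn, the licensing inhibitor geminin, was at 58.2 to 76.2 in ICM and 22.9 and 23.1 in epiblast (log2 fold change -1.44 ± 0.25, adjusted p = 0.00753). G1 and S genes higher and lower numbered 8 and 4 without ICM pool 2, 2 and 0 without epiblast pool 1, 6 and 0 without epiblast pool 2, and 7 and 3 with libraries scaled to the same sum. Replication genes higher and lower numbered 1 and 3 without ICM pool 1, 5 and 2 without ICM pool 3, 1 and 0 without epiblast pool 1, 0 and 1 without epiblast pool 2, and 3 and 6 with libraries scaled to the same sum. Mitosis genes higher and lower numbered 1 and 2 without ICM pool 1, 5 and 2 without ICM pool 3, 0 and 0 without epiblast pool 1, 1 and 0 without epiblast pool 2, and 2 and 6 with libraries scaled to the same sum. Ccnd1, E2f1, Mycn and Gmnn lost their call without epiblast pool 1 (adjusted p from 0.0503 to 0.147). E2f1, Pcna and Gmnn lost their call without epiblast pool 2 (adjusted p from 0.0557 to 0.0873). The log2 fold change of Mycn was 1.78 without epiblast pool 1.

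Cytosolic ribosomal protein genes, 12 of 79 higher and 8 lower with a median of 0.26, also lay near the background. Ribosome biogenesis genes rose in 13 of 49 and fell in 6. Rrs1 was at 2.9, 6.1 and 6.47 in ICM and at 124 and 38 in epiblast. The pre-60S assembly factor encoded by Rrs1 was uneven between the epiblast pools and above ICM in both (log2 fold change 3.56 ± 0.53, adjusted p = 0.00433). Polr1e, a subunit gene of RNA polymerase I, was at 2.98 to 3.93 in ICM and 17.4 and 19 in epiblast (log2 fold change 2.13 ± 0.22, adjusted p = 0.00113). Npm1 was at 31536, 7052 and 22496 in ICM and at 110352 and 85558 in epiblast. ICM pool 2 was the lowest, and reads of Npm1 may have been shared with its near copy Gm14681, which held 7.28% and 3.87% of the epiblast sums (log2 fold change 2.51 ± 0.59, adjusted p = 0.0213). Ribosomal protein genes higher and lower numbered 3 and 4 without ICM pool 1, 10 and 5 without ICM pool 3, 0 and 0 without epiblast pool 1, 3 and 1 without epiblast pool 2, and 8 and 13 with libraries scaled to the same sum. Ribosome biogenesis genes higher and lower numbered 8 and 3 without ICM pool 1, 10 and 3 without ICM pool 3, 1 and 0 without epiblast pool 1, 5 and 1 without epiblast pool 2, and 9 and 8 with libraries scaled to the same sum. Rrs1 and Npm1 lost their call without epiblast pool 1 (adjusted p from 0.0513 to 0.183). Npm1 lost the call without epiblast pool 2 (adjusted p = 0.131).

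Basement membrane and integrin genes fell in 12 of 20 tested and rose in 2, with a median of -1.35. Fn1 was at 19.98, 31 and 25.5 in ICM and at 1.74 and 1.68 in epiblast. Fibronectin RNA was thus low in both epiblast pools (log2 fold change -3.27 ± 0.26, adjusted p = 0.0004). Of the falling matrix genes Lama1 and Sparc are also markers of primitive endoderm. Agrn, a heparan sulfate proteoglycan gene, was at 2.23 to 3.14 in ICM and 5.82 and 6.49 in epiblast (log2 fold change 0.96 ± 0.22, adjusted p = 0.0196). Agrn and Nid2 were the 2 that rose, Nid2, a nidogen gene, at 0.498 to 0.982 in ICM and 3.5 and 3.26 in epiblast (log2 fold change 1.29 ± 0.25, adjusted p = 0.0115). Basement membrane genes higher and lower numbered 1 and 12 without ICM pool 1, 0 and 7 without epiblast pool 1, and 0 and 6 without epiblast pool 2. Agrn lost the call without ICM pool 1 (adjusted p = 0.0542). Agrn and Nid2 lost their call without epiblast pool 1 or epiblast pool 2 (adjusted p from 0.0598 to 0.123).

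Epithelial junction and polarity genes gave 6 of 26 higher (23.1%) and 4 lower (15.4%), near the 17.3% and 14.8% of all genes. Podxl was at 0.714, 2.03 and 0.885 in ICM and at 12.1 and 12.4 in epiblast. Podocalyxin lines the lumen of the epiblast cup, and both epiblast pools were above every ICM pool (log2 fold change 2.63 ± 0.30, adjusted p = 0.00167). Its binding partner gene Slc9a3r1 was at 1.86 to 3.47 in ICM and 11.4 and 8.1 in epiblast (log2 fold change 1.60 ± 0.28, adjusted p = 0.00768). Jup, plakoglobin, was at 10.5 to 14.7 in ICM and 1.91 and 2.97 in epiblast (log2 fold change -2.04 ± 0.26, adjusted p = 0.0026). Prkci, an atypical protein kinase C of polarity, was at 30.7 to 67.9 in ICM and 9.38 and 10.1 in epiblast (log2 fold change -2.27 ± 0.38, adjusted p = 0.00639). Podxl and Slc9a3r1 thus rose, and Jup and Prkci fell. Cdh1 was at 96.8, 76.7 and 97.5 in ICM and at 89.1 and 66.7 in epiblast. E-cadherin RNA overlapped between the tissues (log2 fold change -0.22 ± 0.27, adjusted p = 0.557). Cdh2, N-cadherin, was near 1 in every pool (log2 fold change 0.05 ± 0.26, adjusted p = 0.897), and Vim, vimentin, was at 4.75 to 19.2 in ICM and 6.51 and 4.13 in epiblast (log2 fold change -0.69 ± 0.52, adjusted p = 0.333). Junction and polarity genes higher and lower numbered 2 and 0 without epiblast pool 1, and 5 and 1 without epiblast pool 2. Slc9a3r1, Jup and Prkci lost their call without epiblast pool 1 (adjusted p from 0.0531 to 0.0976). Prkci lost the call without epiblast pool 2 (adjusted p = 0.0647).

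Stress genes showed no common direction. Heat shock and unfolded protein genes gave 6 of 28 higher (21.4%) and 5 lower (17.9%), near the 17.3% and 14.8% of all genes. The chaperone gene Hsp90aa1 was at 765, 489 and 1100.2 in ICM and at 4385 and 2735 in epiblast (log2 fold change 2.22 ± 0.40, adjusted p = 0.00851). Asns, a target of ATF4 that makes asparagine, was at 34.3 to 49.1 in ICM and 12 and 11.9 in epiblast (log2 fold change -1.63 ± 0.26, adjusted p = 0.00563). Ddit3, which encodes CHOP, was at 8.01 to 15.6 in ICM and 2.13 and 2.1 in epiblast (log2 fold change -1.87 ± 0.31, adjusted p = 0.00634). Hsp90aa1 thus rose, while Asns and Ddit3 fell. Of 15 tested chaperone genes 5 were higher and 1 lower, with a median of -0.17. Of the 13 other tested members, for ATF4 and unfolded proteins, 4 were lower, 1 higher and 8 not called, with a median of -0.1. Immediate-early and dissociation genes, 5 of 14 lower and 1 higher, included the matricellular YAP targets. Cyr61 was at 5.36 to 9.79 in ICM and 0.205 and 0.236 in epiblast (log2 fold change -2.72 ± 0.28, adjusted p = 0.00113). Ctgf was at 4.86 to 5.68 in ICM and 0.365 and 0.127 in epiblast (log2 fold change -2.34 ± 0.23, adjusted p = 0.000906). Both were below 1 in each epiblast pool. Of p53 targets and BCL2 family genes 6 of 21 rose and 4 fell. Bak1, an executioner of apoptosis, was at 0.0946 to 0.381 in ICM and 3.19 and 5.63 in epiblast (log2 fold change 2.12 ± 0.30, adjusted p = 0.00373). Bcl2l11, which encodes BIM, was at 1.39 to 2.83 in ICM and 11.6 and 8.92 in epiblast (log2 fold change 1.85 ± 0.28, adjusted p = 0.00432). Both promote cell death and both rose, while the 4 genes of the list that fell are not described here. Heat shock and unfolded protein genes higher and lower numbered 3 and 5 without ICM pool 1, 0 and 0 without epiblast pool 1, 3 and 0 without epiblast pool 2, 6 and 7 with libraries scaled to the same sum, and 6 and 7 with quantile normalization. Immediate-early genes higher and lower numbered 0 and 4 without ICM pool 1, 0 and 3 without ICM pool 3, 0 and 2 without epiblast pool 1, and 1 and 3 without epiblast pool 2. p53 and BCL2 family genes higher and lower numbered 4 and 2 without ICM pool 1, 5 and 2 without ICM pool 3, 1 and 0 without epiblast pool 1, and 3 and 2 without epiblast pool 2. Hsp90aa1, Asns, Ddit3 and Bcl2l11 lost their call without epiblast pool 1 (adjusted p from 0.0663 to 0.108). Hsp90aa1, Asns and Ddit3 lost their call without epiblast pool 2 (adjusted p from 0.0518 to 0.0694).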

How the data were processed

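RNA from pools of embryos was amplified, sequenced and summarised per gene by the authors. The deposited values are named adjusted TPM per the file headers, and they are treated here as a signal per gene, since the deposited columns have unequal sums and no source used here says how the values were adjusted. Bowtie 0.12.5, DESeq and the mm9 build are named, without roles, in the submitters' processing notes. Quantifier, annotation and strand use were not given in the sources used here. Genes that overlap, lie antisense or have near-identical copies are therefore uncertain. Read depth is unknown, and no counting error can be given.

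Genes at 1 or more in at least 2 of the 5 libraries were fitted with limma 3.58.1 in R 4.3.3 on log2(value + 1), with a prior variance that follows the mean level (residual df 3, prior df 3.86). P-values were adjusted by the Benjamini-Hochberg method over all 16318 genes, with calls at 0.05. The design had been written for TPM, and the test was kept. On simulated data with these 16318 genes, 200 of them were changed. Of changes of 1 on the log2 scale 3% were recovered, and of changes of 2, 73%. Of the calls 4.76% were false, and 0 genes were called where nothing changed. Only 200 genes were changed there while 5240 were called here, and genes low in ICM were never changed. These rates therefore do not describe this comparison. The other settings tried were pseudocounts, filters, scalings, all 8 libraries in the fit, a replicate block, no variance trend, a minimum fold of 1.5 and leaving out each library.

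The 47 gene lists hold 1250 genes of the file, 967 of them tested, and the line with the highest mean was used for the 204 symbols found on more than 1 line. A gene on several lists is counted in each. Examples are Dppa3 (naive and DNA methylation), Fbxo15 (naive and oocyte), and Fgf4 and Fgfr1 (naive and FGF). The members and lists were chosen with earlier results of these data known. Genes named are a fixed set, the 12 largest changes each way among genes whose groups do not overlap and whose higher group has a mean of at least 10 (predicted genes left out), and in each list the 3 called members with the smallest adjusted p each way. Any other is marked as chosen with its values seen, and a few genes that the rule names are not reported here. The 3 diapaused ICM libraries entered 1 alternative fit only. Promoters came from RefSeq's table on GRCm38.p6. Python 3.11.15, pandas 2.3.3 and matplotlib 3.10.9 made the summaries and plots.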

Additional observations from a re-analysis of the deposited data

How the results depend on the processing

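Against 5240 genes called (2823 higher, 2417 lower), 2332 (1260 and 1072) were called with no filter on low values and 1809 (828 and 981) in a test against a minimum fold of 1.5. Scaling each library to the same sum left 1630 higher, and a replicate block left 1779 higher. Leaving out 1 library in turn gave 1025 to 5380 genes called, 525 to 2680 higher and 500 to 2700 lower. Totals under the other settings stayed within 1.5 times. Of 208 genes with values in the text, the sum scaling took the call from 8 (Spry4, Id2, Gprasp1, Bhlhb9, Eif2s3y, Hif1a, Idh3a and Agrn, limma adjusted p 0.0665 to 0.166), no filter from 48 and the minimum fold from 37. Sox2, Utf1, Myc and Cdh2, 4 uncalled genes, changed sign. Sox2 (0.33 on the log2 scale) ran from -0.43 without epiblast 1 to 1.09 without epiblast 2. Utf1 (-0.09) was 0.03 with quantile normalization, and ran from -0.30 without ICM 1 to 0.10 without epiblast 2 with 1 library left out. Myc (-0.13) was 0.07 with the replicate block, and ran from -0.57 without epiblast 1 to 0.32 without epiblast 2. Cdh2 (0.05) was -0.11 with the sum scaling and -0.02 with quantile normalization, and ran from -0.02 without ICM 1 to 0.12 without ICM 2. The causes were not tested. Labels give both groups pools 1 and 2 but do not pair them, and deviations of the same number correlated at -0.072 and 0.005. With the replicate block 16 named genes lost their call, Klf2, Pou5f1, Tdgf1, Fgfr2, Dkk1 and T among them. Depth is unknown, so a low level cannot be set against a counting limit.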
